A study of Mus musculus with 6 samples.

Results

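The exocrine pancreas was followed here through 34 genes of acinar cells, on arrays of regulatory T (Treg) cells sorted from pancreas and from spleen. The genes were taken by name from a list of digestive enzymes, secretory granule proteins and acinar transcription factors. A gene counted as measured when a probe set named it and no other gene, which held for 30 of the 34 genes, among 19752 genes in all. Pnlip and Klk1 are not analysed here, and Prss1 and Amy2b stood only on probe sets that name several genes, whose values are given apart. Foxp3+ Treg cells from the pancreas (3 arrays) were set against Foxp3+ Treg cells from the spleen (3 arrays), all of 10-week-old prediabetic female NOD mice. This strain is a model of spontaneous autoimmune diabetes. All mice carried the Foxp3-ires-gfp reporter and the genetic background labelled NOD NRB_SFB+. In both tissues DAPI-negative cells positive for CD45, TCRb, CD4 and the reporter's GFP were sorted and sorted again into TRIzol, so a gate on GFP, CD4 and CD45 stood between the tissue and the RNA. The labels do not say whether an array came from 1 mouse or a pool, so the spread behind each p-value may be partly or wholly technical.

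Acinar cells make up most of the pancreas by mass. They store digestive enzymes as inactive precursors, called zymogens, in granules and release them into the duct, and trypsin then cuts the other zymogens to their active forms in the gut. The transcription factor Ptf1a, with its partner Rbpjl, drives the enzyme genes, and Bhlha15 (MIST1) shapes the secretory apparatus. Acinar cells carry neither CD45 nor Foxp3 and are no target of the sort used here.

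Genes of the sorted population were high in both tissues. Foxp3 had an intensity of 2832, 3225 and 2569 on pancreas arrays 1 to 3, and 2280, 3415 and 3254 on spleen arrays 1 to 3, so the tissues overlapped. None of the 9 genes of the sorted population on the list used (0 higher, 0 lower) passed the test. Intensities are the authors' linear RMA values, in arbitrary units, and a level of 63.9, drawn from olfactory and vomeronasal receptor genes, was taken as background. The median intensity of the arrays ran from 82.02 to 92.03. The width of their distributions differed, with an interquartile range of 2.10 to 2.96 on the pancreas arrays and 2.38 to 2.90 on the spleen arrays (log2 scale). Spleen array 3 stood apart from spleen arrays 1 and 2 in the acinar genes, and results that turn on it are also given without it. Precision is limited by the 3 arrays a tissue.

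The promoters of the members with the largest differences are shown first. RefSeq held a promoter window of 300 bases, from 250 before to 50 after the gene start, for 27 of the 34 genes and for 23 of the 30 measured ones. The letters CACCTG and CAGCTG are E-boxes of the kind that basic helix-loop-helix factors such as Ptf1a bind. TTCCCA is part of the site of the RBPJ family, to which Rbpjl belongs, and TATAAA is the TATA box. Below are the 6 measured members with the largest log2 fold change that have an entry, and Ptf1a for comparison, 5′ to 3′ on the gene's strand (build GRCm38.p6), with matches to any of the 4 motifs on either strand in capitals.
Ctrb1, chr8:111690961-111691260, minus strand: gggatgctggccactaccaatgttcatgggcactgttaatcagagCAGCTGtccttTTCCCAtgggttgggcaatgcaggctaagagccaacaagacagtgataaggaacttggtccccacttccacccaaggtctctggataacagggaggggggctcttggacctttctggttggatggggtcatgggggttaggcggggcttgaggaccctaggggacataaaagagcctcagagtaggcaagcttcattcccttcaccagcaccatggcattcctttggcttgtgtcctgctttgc
Cpa1, chr6:30638968-30639267, plus strand: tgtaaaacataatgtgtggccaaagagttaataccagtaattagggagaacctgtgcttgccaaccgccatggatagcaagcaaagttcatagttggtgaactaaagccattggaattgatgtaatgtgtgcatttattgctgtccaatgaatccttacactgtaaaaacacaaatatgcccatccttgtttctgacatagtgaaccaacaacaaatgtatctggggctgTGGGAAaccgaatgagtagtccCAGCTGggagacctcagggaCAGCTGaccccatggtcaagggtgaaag
Cpb1, chr3:20275684-20275983, minus strand: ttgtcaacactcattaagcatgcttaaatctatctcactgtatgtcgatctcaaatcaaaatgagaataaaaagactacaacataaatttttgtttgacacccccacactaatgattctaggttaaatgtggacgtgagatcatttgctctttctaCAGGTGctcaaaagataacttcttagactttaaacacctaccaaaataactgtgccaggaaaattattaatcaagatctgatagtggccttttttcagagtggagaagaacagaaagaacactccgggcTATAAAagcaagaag
Rnase1, chr14:51146718-51147017, minus strand: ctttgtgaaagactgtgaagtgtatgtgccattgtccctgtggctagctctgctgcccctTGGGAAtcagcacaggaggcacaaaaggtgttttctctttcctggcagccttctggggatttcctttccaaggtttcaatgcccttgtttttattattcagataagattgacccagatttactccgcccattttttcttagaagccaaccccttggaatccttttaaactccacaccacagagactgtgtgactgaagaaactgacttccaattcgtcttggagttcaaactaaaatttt
Cel, chr2:28563354-28563653, minus strand: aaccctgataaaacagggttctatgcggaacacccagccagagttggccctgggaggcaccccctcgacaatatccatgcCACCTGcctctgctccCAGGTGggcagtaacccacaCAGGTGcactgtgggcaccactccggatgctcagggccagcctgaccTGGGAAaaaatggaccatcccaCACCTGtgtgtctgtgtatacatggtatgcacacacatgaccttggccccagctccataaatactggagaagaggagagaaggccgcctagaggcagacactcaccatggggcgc
Ctrl, chr8:105933813-105934112, minus strand: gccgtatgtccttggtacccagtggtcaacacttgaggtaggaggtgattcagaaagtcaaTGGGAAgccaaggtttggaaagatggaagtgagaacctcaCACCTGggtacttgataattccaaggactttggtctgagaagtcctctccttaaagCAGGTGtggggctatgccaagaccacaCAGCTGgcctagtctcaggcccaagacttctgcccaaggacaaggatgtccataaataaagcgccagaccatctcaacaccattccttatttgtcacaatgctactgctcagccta
Ptf1a, chr2:19445413-19445712, plus strand: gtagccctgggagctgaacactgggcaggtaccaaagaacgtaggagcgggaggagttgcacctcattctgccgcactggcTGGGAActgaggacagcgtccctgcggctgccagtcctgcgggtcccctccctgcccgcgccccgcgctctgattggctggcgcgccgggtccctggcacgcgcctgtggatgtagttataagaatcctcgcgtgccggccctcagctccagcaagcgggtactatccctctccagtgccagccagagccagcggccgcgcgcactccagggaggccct
A CACCTG or CAGCTG E-box, on either strand, stood in 17 of the 23 windows (73.9%), against 32.9% of all 32851 promoters of the same length in the table. TTCCCA was found in 12 of the 23 (52.2%), against 25.6% of all. An E-box together with TTCCCA was found in 7, those of Cel, Rbpjl, Cela2a, Cpa1, Prss2, Ctrl and Ctrb1 (30.4%, against 8.64%). TATAAA stood in 7 windows (30.4%, against 13.6%). The Cel window held 4 CACCTG matches and 1 TTCCCA, the Ctrl window 2 CACCTG, 1 CAGCTG and 1 TTCCCA, and the Cpa1 window 2 CAGCTG and 1 TTCCCA. The Ctrb1 window held 1 CAGCTG and 1 TTCCCA, and the Ptf1a window 1 TTCCCA and no E-box. These are matches of letters, not sites shown to be bound, and some genes here share ancestry and so sequence. The 23 windows include genes that did not pass the test, among them Rbpjl, Bhlha15, Serpini2, Cuzd1 and Ptf1a. A link between these letters and the array values was not tested.

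Genes of acinar zymogens and granules were far higher in pancreatic than in splenic Treg samples. All 30 measured members had a higher mean on the pancreas arrays, against 49.8% of all genes, and 21 of the 30 passed the test (limma, Benjamini-Hochberg adjustment over all genes, adjusted p under 0.05), against 0.547% of all genes passing in that direction. None of the 30 passed as lower in pancreas, against 0.132% of all genes. The 3 pancreas arrays lay above the 3 spleen arrays for 26 of the 30 members, against 4.57% of all genes, and below them for none of the 30, against 5.81%. The median log2 fold change of the 30 was 2.68, beside -0.000913 over all genes, and ran from 0.05 for Ptf1a to 4.57 for Ctrb1. Of the 20 genes with the largest log2 fold change on the array, 15 were members. The list was chosen with earlier results of these data known, so these counts describe it and are no independent support. Low values were not filtered out. In all, 27 members were above background on at least 1 array, 24 on every pancreas array, and 9 were below background on every spleen array. In sorted bulk RNA, fewer cells of a type and less RNA per cell cannot be told apart. With pancreas array 1 left out 12 members passed. With each array centred on its median 11 passed, and the calls of Prss2, Try4, Cela3b, Cpb1, Ctrb1, Cel, Pnliprp1, Sycn, Gp2 and Gatm ended, while raising values below background to that level left 0.

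**Figure D1:**
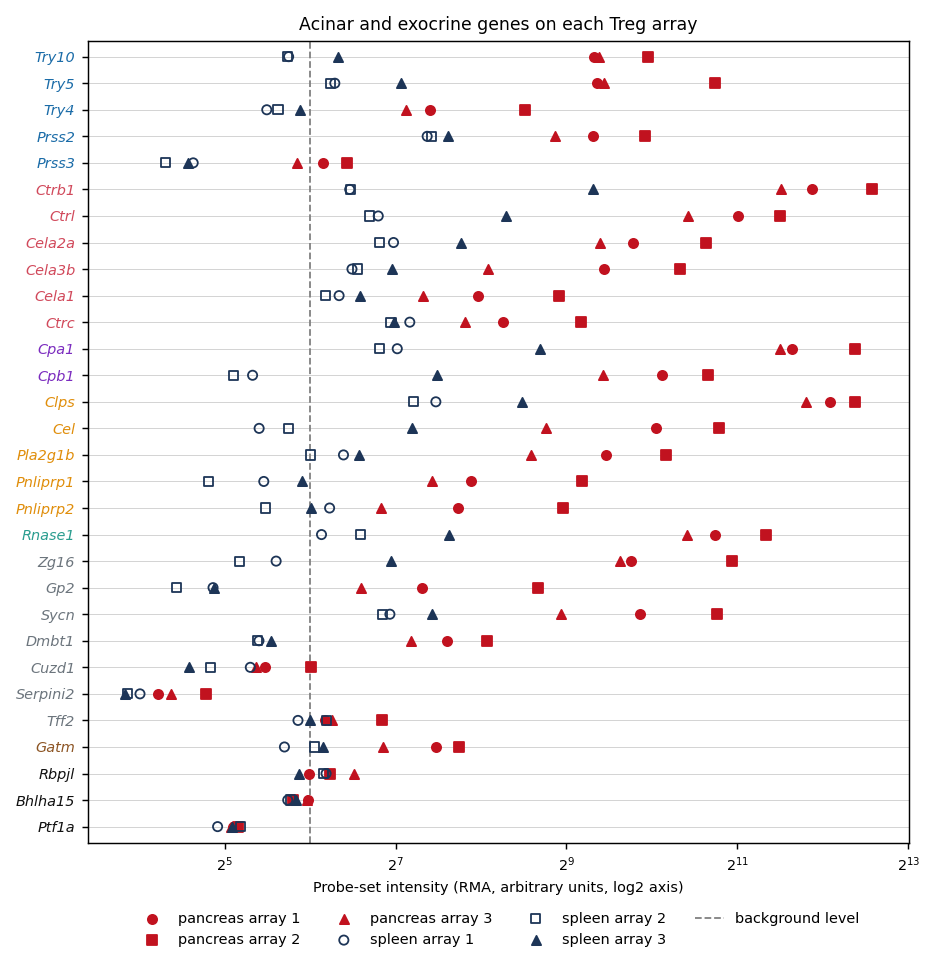
Intensity (log2 axis, arbitrary units) of the 30 measured genes, 1 row a gene, with each pancreas array as a filled red symbol and each spleen array as a blue one, the background level of 63.9 dashed and gene names coloured by class. Pancreas array 2 (squares) is the highest array for 28 genes, and spleen array 3 (filled blue triangles) is the highest spleen array for 22.

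The trypsinogens, precursors of trypsin, were higher in pancreas for all 5 measured members, with a median log2 fold change of 2.01. Try10 had 642, 992 and 667 on the pancreas arrays, against 53.8, 53.4 and 80.6 on the spleen arrays. Spleen arrays 1 and 2 were below background and spleen array 3 just above it, so Try10 was at least 10.9-fold higher (adjusted p = 7.7e-05). Try10 had the smallest adjusted p among the members. Here and below, the adjusted p beside a lower bound is that of the fit without raised values, and does not test the bound. Try5 had 658, 1702 and 692 in pancreas and 78.2, 75.5 and 134 in spleen (log2 fold change 3.31 ± 0.35 SE, adjusted p = 0.00173). Pancreas array 2 was well above the other 2 pancreas arrays, and spleen array 3 above the other 2 spleen arrays. Prss2, the anionic trypsinogen gene, had 637, 969.5 and 466 in pancreas against 165, 171 and 197 in spleen. That is a smaller difference (log2 fold change 1.90 ± 0.25 SE, adjusted p = 0.00693), with the spleen arrays close together. Try4 had 169, 366 and 139 in pancreas against 45.0, 49.3 and 58.9 in spleen. Since the spleen arrays were all below background, Try4 was at least 3.21-fold higher (adjusted p = 0.017), and with pancreas array 1 or spleen array 2 left out it missed the threshold (highest adjusted p 0.0599). Prss3 was dim throughout, with 70.8, 86.5 and 57.3 in pancreas and 24.8, 19.8 and 23.8 in spleen. It passed (adjusted p = 0.00363), but with 1 pancreas array and every spleen array below background no lower bound can be given for its fold. The trypsinogens are close paralogs in a cluster on chromosome 6, so their probe sets may share signal and which member changed is uncertain.

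The elastase and chymotrypsin genes held the largest log2 fold change among the 19752 genes read by a probe set of their own. Ctrb1, the gene of chymotrypsinogen B, had 3756, 6098 and 2905 on the pancreas arrays, against 88.3, 88.6 and 635 on the spleen arrays. Spleen arrays 1 and 2 were nearly equal and spleen array 3 was 7.18-fold above them, which widened the error of the difference (log2 fold change 4.57 ± 0.63 SE, 23.8-fold, adjusted p = 0.00952). Without spleen array 3 Ctrb1 was 45.8-fold higher (adjusted p = 3.24e-06), and without pancreas array 1 its call ended (adjusted p = 0.0619). The call also ended with a trended and robust variance (adjusted p = 0.0523). Ctrl, the gene of a chymotrypsin-like protease, had 2062, 2890.4 and 1373 in pancreas against 111, 104 and 313 in spleen (13.1-fold, adjusted p = 0.0018). Spleen array 3 was again the high one, yet all pancreas arrays were far above it. Cela2a had 878, 1584 and 669.9 in pancreas against 126, 112 and 217 in spleen (6.72-fold, adjusted p = 0.00363). Cela3b had 694, 1289 and 271 in pancreas against 89.9, 94.2 and 125 in spleen (6.12-fold, adjusted p = 0.0264). Pancreas array 3 was the lowest for both of these elastase genes, and for Cela3b by the widest margin of all members. Without pancreas array 3 Cela3b was 9.28-fold higher. Leaving out pancreas array 1, spleen array 1 or spleen array 2 ended its call (highest adjusted p 0.0969).

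Cela1 and Ctrc were separate between tissues without passing. Cela1 had 249.5, 482 and 160.1 in pancreas against 81.0, 72.3 and 96.2 in spleen (log2 fold change 1.70 ± 0.33 SE, adjusted p = 0.0517). Ctrc, which RefSeq lists as a transcribed pseudogene in the mouse, had 306, 577 and 225 in pancreas against 144, 123 and 127 in spleen (1.38 ± 0.29 SE, adjusted p = 0.0753). The pancreas arrays ranged widely for both genes, and both passed without pancreas array 3 (adjusted p = 0.000382 for Cela1 and 0.00165 for Ctrc). Spleen array 3 did not stand out for Ctrc.

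Both carboxypeptidase genes, whose enzymes trim amino acids from the ends of peptides, rose strongly. Cpa1 had 3194, 5302 and 2893 in pancreas against 129.8, 112 and 412 in spleen (20.1-fold, log2 fold change 4.33 ± 0.43 SE, adjusted p = 0.00134). Cpb1 had 1107, 1616 and 686 in pancreas against 40.1, 34.5 and 179.8 in spleen. Spleen array 3 was the highest spleen array for both genes, 3.41-fold above the other 2 for Cpa1. For Cpb1 it was the sole spleen array above background, and at least 2.82-fold above the other 2. For Cpb1 the lower bound was 11.9-fold (adjusted p = 0.00772). Without spleen array 3 the fold of Cpa1 was 30.3 and the lower bound for Cpb1 was 16.8-fold. The call of Cpb1 ended without pancreas array 1 (adjusted p = 0.0575).

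Among the genes of fat digestion, 4 of 5 measured rose. Clps, the gene of colipase, which anchors lipase to fat droplets, had 4346, 5315 and 3567 in pancreas against 177, 148 and 356 in spleen. Its standard error was the smallest among the members with a log2 fold change above 4 (4.37 ± 0.30 SE, 20.6-fold, adjusted p = 9.26e-05). Cel, the gene of the bile salt-dependent carboxyl ester lipase, had 1058, 1764 and 434 in pancreas against 42.3, 53.7 and 146 in spleen (adjusted p = 0.00952). As for Cpb1, spleen array 3 was the sole spleen array above background, which gave a lower bound of 11.1-fold. Pla2g1b, the phospholipase gene of pancreatic juice, had 705, 1149 and 383 in pancreas against 83.9, 64.2 and 94.97 in spleen (8.47-fold, adjusted p = 0.00195). Pnliprp1, a gene of a lipase-related protein, had 236, 579 and 172 in pancreas against 44.0, 28.2 and 60.0 in spleen. All 3 spleen arrays were below background, which gave a lower bound of 4.48-fold (adjusted p = 0.0141). The calls of Cel and Pnliprp1 ended without pancreas array 1 (adjusted p = 0.0631 and 0.06). Pnliprp2 had 213, 497 and 114 in pancreas against 75.0, 44.4 and 64.4 in spleen, and missed the test (log2 fold change 1.94 ± 0.43 SE, adjusted p = 0.0949). The tissues did not overlap for it, and without pancreas array 3 it passed (adjusted p = 0.00057).

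Rnase1, the gene of the secreted pancreatic ribonuclease, had 1708, 2591 and 1359.6 in pancreas against 70.2, 96.4 and 198 in spleen. All 3 spleen arrays were above background, with spleen array 3 the highest, and the difference was 16.5-fold (log2 fold change 4.04 ± 0.35 SE, adjusted p = 0.000529). Amylase, which digests starch, was read by 3 probe sets that name Amy2a2, Amy2b and Amy2a5 together, so the genes cannot be told apart. The first had 2093, 2984 and 1362 in pancreas against 40.5, 25.8 and 271 in spleen. Tested over all probe sets of the table, the 3 had a fitted log2 fold change of 4.92 to 4.96, above that of Ctrb1, and 2 of the 3 passed (adjusted p = 0.0481, 0.0498 and 0.0508). Spleen arrays 1 and 2 were below background there. With them raised to that level the 3 probe sets were at least 19.8-fold, 22.0-fold and 20.7-fold higher in pancreas, and spleen array 3 was at least 4.24-fold to 5.32-fold above the other 2 spleen arrays. Prss1 was read by 2 probe sets shared with Prss3, Gm10334 and Gm5771. The first, with all spleen arrays above background, was 4.46-fold higher in pancreas, and the second, with 1 above, at least 2.62-fold (adjusted p = 0.00777 and 0.00924 over all probe sets). On the first, spleen array 3 was 1.04 times the other 2 spleen arrays.

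Genes of zymogen granule and mucosal proteins were mixed, with 4 of 7 past the test. Zg16, a lectin of the granule, had 865, 1959 and 793 in pancreas against 48.6, 36.2 and 124 in spleen. Spleen array 3 alone was above background among the spleen arrays, and the lower bound for Zg16 was 13.9-fold (adjusted p = 0.00173). Sycn, the gene of syncollin, a protein of the granule membrane, had 929.9, 1732 and 489.9 in pancreas against 122, 115 and 172 in spleen (6.87-fold, adjusted p = 0.00879). Gp2, the major glycoprotein of that membrane, had 158, 406 and 96.7 in pancreas against 29.1, 21.7 and 29.3 in spleen. All spleen arrays of Gp2 were below background and spleen array 3 lay beside spleen array 1, so Gp2 was at least 2.88-fold higher (adjusted p = 0.0141). Dmbt1, a scavenger receptor glycoprotein secreted by epithelia, had 194, 269 and 145 in pancreas against 42.3, 41.8 and 46.5 in spleen (at least 3.08-fold, adjusted p = 0.00148). Its spleen arrays were the most alike of the 4 genes. The call of Sycn ended without pancreas array 1 (adjusted p = 0.0575), and that of Gp2 when pancreas array 1 or spleen array 2 was left out (highest adjusted p 0.0621).

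The remaining 3 secreted proteins did not pass. Tff2, a trefoil peptide of mucus, had 72.2, 115 and 76.4 in pancreas against 58.0, 73.1 and 63.7 in spleen, so the tissues overlapped (log2 fold change 0.41 ± 0.21 SE, adjusted p = 0.841). Cuzd1, a zymogen granule protein gene, had 44.4, 64.6 and 41.3 in pancreas against 39.4, 28.5 and 23.9 in spleen, with pancreas array 2 alone above background (adjusted p = 0.38). Serpini2, a serine protease inhibitor of the pancreas, stayed between 14.3 and 27.5, below background on all 6 arrays (adjusted p = 0.395). Gatm, a mitochondrial enzyme of creatine synthesis that is abundant in acinar cells and kidney, had 177, 213 and 115 in pancreas against 52.0, 66.4 and 71.1 in spleen. It was at least 2.43-fold higher (adjusted p = 0.0295), but its call ended without pancreas arrays 1 or 2 or spleen arrays 1 or 2 (adjusted p up to 0.125).

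The transcription factors of acinar cells did not differ past the test. Ptf1a had 34.3, 35.6 and 33.8 in pancreas against 30.2, 36.3 and 33.9 in spleen, all below background (log2 fold change 0.05 ± 0.16 SE). Bhlha15 had 62.8, 55.7 and 62.3 in pancreas against 53.4, 54.5 and 57.1 in spleen, again all below background (0.13 ± 0.15 SE). Rbpjl had 63.6, 75.0 and 91.0 in pancreas against 72.9, 71.5 and 58.6 in spleen, so it lay near background and the tissues overlapped (0.17 ± 0.19 SE). Below background an array gives no level, so the values of Ptf1a and Bhlha15 put only a ceiling on these 2 genes. Rbpjl was above background on 2 pancreas arrays and 2 spleen arrays.

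**Figure D2:**
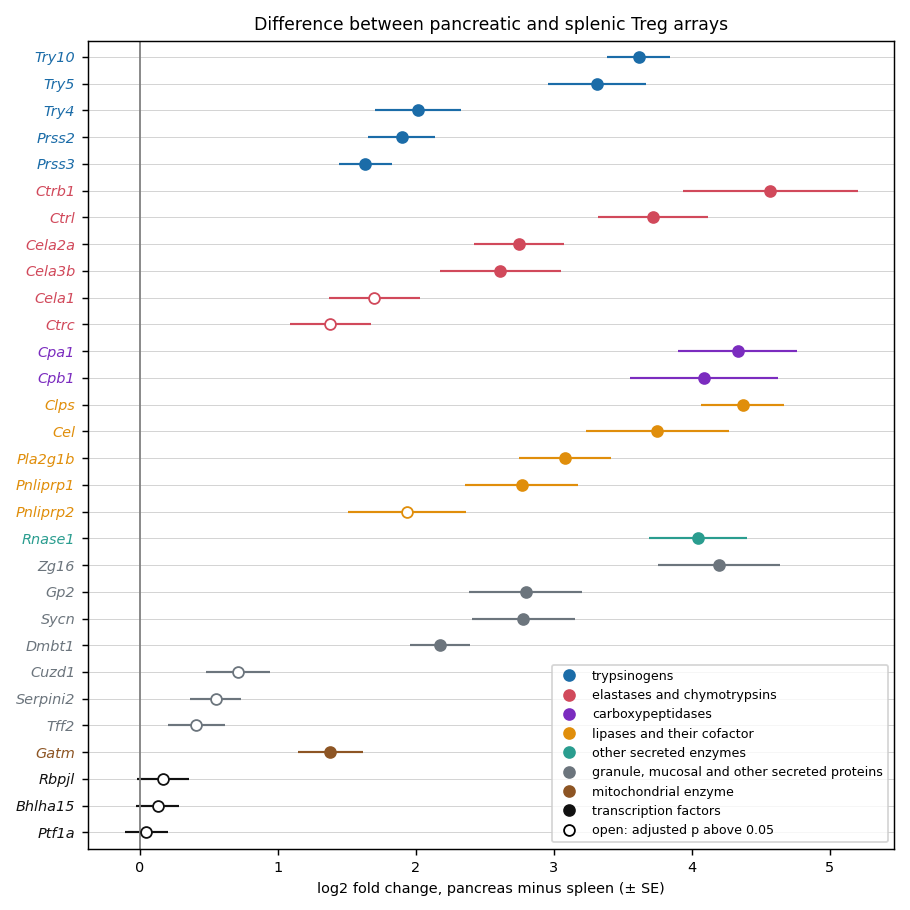
Log2 fold change of pancreatic against splenic Treg arrays (points, with the standard error of the limma fit as bars, 3 arrays a tissue) for the 30 measured genes, coloured by class and open where the adjusted p was above 0.05. The 2 carboxypeptidases lie above 4, the 5 trypsinogens between 1.64 and 3.61, and the 3 transcription factors between 0.05 and 0.17. Values below background were not raised for these points, so they are not lower bounds.

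Within the pancreas the members kept 1 order of arrays. Pancreas array 2 was the highest for 28 of the 30, against 26.4% of all genes, while array 1 was the highest for 1, against 31.2%, and array 3 for 1, against 42.4%. Pancreas array 3 was the lowest for 24, against 39.9% of all genes. The full order of array 2, then array 1, then array 3 held for 24 of the 30, against 14.5% of all genes. Over the members the mean log2 intensity was 8.48, 9.18 and 8.09 on pancreas arrays 1 to 3. The width of the arrays ran in another order, widest on array 1 (interquartile range 2.96), then array 2 (2.63) and array 3 (2.10). Exceptions were Rbpjl, highest on array 3, Bhlha15, highest on array 1, and Try5, Try10, Serpini2 and Tff2, highest on array 2 but lowest on array 1. The gap between the highest and the lowest pancreas array had a median of 1.07 on the log2 scale over the 30, and reached 2.25 for Cela3b. It was smallest among the called members for Clps (0.58).

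To set genes beside each other on 1 footing, the intensity in excess of the mean of spleen arrays 1 and 2 was taken for the 21 members at least 2-fold above that mean on every pancreas array. This is a description, in which every array shares the same subtracted values. The excess of pancreas array 1 was a median of 58.7% of that of pancreas array 2 (34.9% to 81.2%), and that of pancreas array 3 a median of 37.9% (14.95% to 66.1%). The percentages differed widely between genes. Clps was near the top on both arrays, with 81.2% and 66.1%, while Gp2 was near the bottom, with 34.9% and 18.7%. The classes overlapped, with a median for pancreas array 3 of 37.9% in the trypsinogens, 37.6% in the elastases and chymotrypsins and 26.8% in the lipase group.

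Spleen array 3 had higher values than spleen arrays 1 and 2 for part of the members. Of the 30, 19 were above background on spleen array 3, against 15 and 16 on spleen arrays 1 and 2. It was the highest spleen array for 22 of the 30 members, against 28.2% of all genes. Among the 22, Try4, Pnliprp1, Gp2, Dmbt1 and Bhlha15 were below background on every spleen array, where a rank gives no level. Spleen array 1 was the highest for 6, against 45.2%, and spleen array 2 for 2, against 26.6%. Spleen array 3 lay at least 1.5-fold above both other spleen arrays for 10 of the 30, against 1.03% of all genes. The 10 were Ctrb1, Cpb1, Cpa1, Cel, Zg16, Ctrl, Rnase1, Clps, Cela2a and Try5. The mean log2 intensity over the members was 5.99, 5.89 and 6.58 on spleen arrays 1 to 3, and stayed highest on spleen array 3 after quantile normalization (5.91, 5.91 and 6.61). Spleen array 3 was also the widest spleen array, with an interquartile range of 2.90, against 2.38 and 2.69 on spleen arrays 1 and 2. The median difference between spleen array 3 and the mean of the other 2 was 0.35 over the members and -0.07 over all genes (log2 scale). Ctrb1 had the largest such difference of all 19752 genes (2.84). In none of the 21 members that passed did spleen array 3 reach the lowest pancreas array. The test that picked them used these same arrays, so this is largely set by the choice and is no support.

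The excess on spleen array 3 varied between genes, and the class ranges overlapped. As a percentage of the mean pancreas excess it had a median of 6.36% and ran from 1.97% for Gp2 to 13.1% for Ctrb1. This covers the 21 genes at least 2-fold above the mean of spleen arrays 1 and 2 on every pancreas array. They are not the 21 that passed, since Cela1 is included and Gatm is not. The elastases and chymotrypsins lay between 4.97% (Cela3b) and 13.1%, with 10.6% for Cela2a, 10.2% for Ctrl and 8.84% for Cela1. The carboxypeptidase genes had 13.0% for Cpb1 and 7.91% for Cpa1. The lipase group ran from 3.12% for Pla2g1b and 4.55% for Clps to 8.18% for Pnliprp1 and 9.46% for Cel. The 5 trypsinogens lay between 3.13% and 6.57%, and the granule proteins had a median of 4.27%. Amylase, on its shared probe sets, had 11.2% to 12.1%, and the first Prss1 probe set 1.08%. With 1 array this has no replicate check, no difference between classes was tested, and for dim genes the percentage rests on differences of a few intensity units, 3.83 for Gp2 and 1.54 for Prss3. Gp2, Prss3, Try4, Pnliprp1 and Dmbt1 were below background on every spleen array. Their percentages, among them 1.97% for Gp2, 6.57% for Try4 and 8.18% for Pnliprp1, therefore give no level on spleen array 3.

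**Figure D3:**
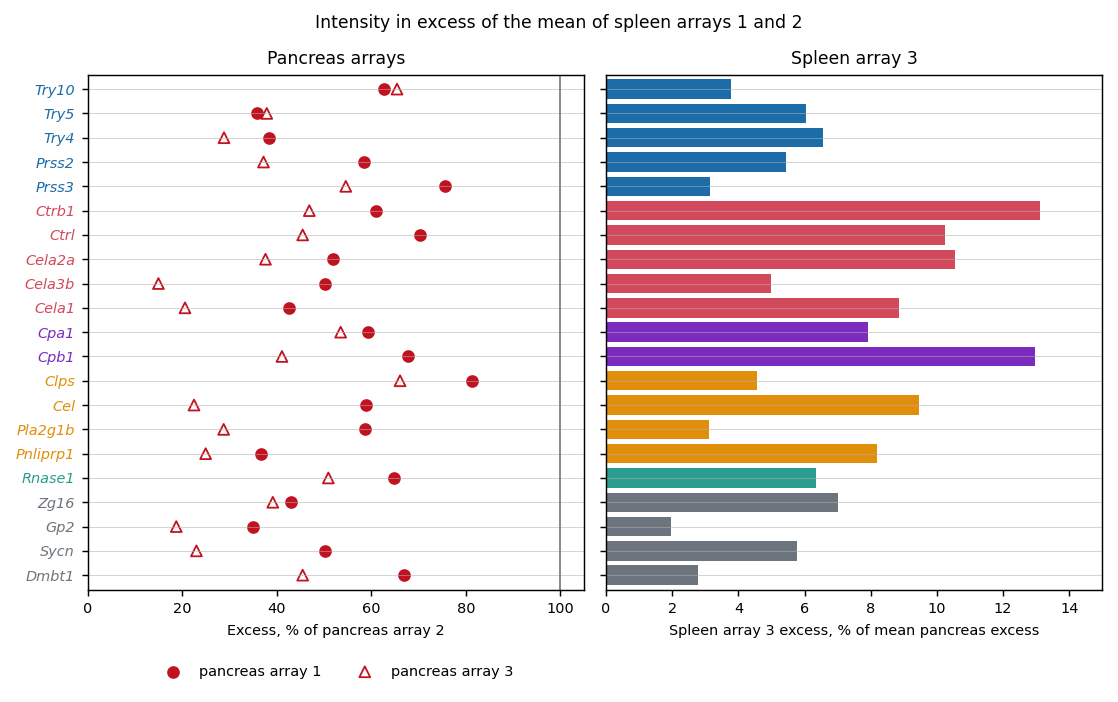
Left, the intensity above the mean of spleen arrays 1 and 2 on pancreas arrays 1 and 3, as a percentage of that on pancreas array 2, for the 21 genes at least 2-fold above that mean on every pancreas array. Right, the same excess on spleen array 3 as a percentage of the mean pancreas excess, coloured by class, with Ctrb1 (13.1%) and Cpb1 (13.0%) at the top and Gp2 (1.97%) at the bottom.

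Other exocrine genes were read beside the members. Of 20 further acinar genes measured, only 9 had a mean above background, and genes below it give no level. Of the 20, 1 rose and 0 fell, with a median log2 fold change of 0.13. The 1 was 2210010C04Rik, a protein-coding gene of chromosome 6 known here by its clone name, with 3353, 4781 and 3373 in pancreas against 137, 94.7 and 328 in spleen (23.3-fold, adjusted p = 0.000373). Spleen array 3 was again the highest spleen array. Gm5409, which RefSeq lists as a pseudogene with the synonym Try10l, was 2.27-fold higher (adjusted p = 0.0845). Xbp1, a factor of the secretory stress response that lymphocytes also express, had 1158, 1270.0 and 989 in pancreas against 788, 1112 and 1329.9 in spleen (adjusted p = 1.00). Of the 7 Reg genes, which encode secreted lectins, 1 rose and 0 fell, and only Reg1 had a mean above background. Reg1 had 836, 1241 and 432 in pancreas against 61.6, 50.4 and 131 in spleen (adjusted p = 0.00408). With 1 spleen array above background, it was at least 9.43-fold higher. Its arrays took the order of the acinar enzymes in both tissues.

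Markers of other cells were read on the same arrays, and their part in the acinar difference was not tested. Of 8 duct cell genes 0 passed in either direction (median log2 fold change 0.09), with a summed intensity of 474 to 532 in pancreas and 393 to 465 in spleen. Of 11 islet genes 0 passed (median 0.09), with sums of 673 to 931 in pancreas and 693 to 836 in spleen. Ins2, the insulin gene, had 84.3, 109 and 89.7 in pancreas against 79.8, 85.8 and 77.8 in spleen. The general epithelial genes (0 of 6, sums of 381 to 512 in pancreas and 391 to 451 in spleen), the fibroblast and stellate genes (0 of 8, sums of 519 to 762 in pancreas and 548 to 694 in spleen) and the endothelial genes (0 of 6, sums of 685 to 812 in pancreas and 1040.1 to 1102 in spleen) did not pass either. Pecam1, an endothelial marker that T cells also carry, was at -0.81 (adjusted p = 0.112). The red cell list had 1 gene measured and 0 passed. A mean above background was found for 4 of the 8 duct, 5 of the 11 islet and 3 of the 6 epithelial genes. It was found for 4 of the 8 fibroblast and stellate genes, 2 of the 6 endothelial genes and 0 red cell genes. Genes below background give no level, so these counts and sums say little about them.

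Among markers of other immune cells, 1 gene of each of 2 lists passed. Of 5 B cell genes 1 rose and 0 fell (median log2 fold change 0.68), with sums of 695 to 1512 in pancreas and 485 to 580 in spleen. It was Cd79a, part of the B cell receptor, with 213, 111 and 328 in pancreas against 49.2, 77.4 and 43.1 in spleen (adjusted p = 0.0482). For all 5 B cell genes every pancreas array lay above every spleen array, against 4.57% of all genes. Pancreas array 2, the highest for acinar genes, was the lowest for Cd79a, and for Ms4a1, the gene of CD20, with 256, 80.1 and 306 in pancreas against 48.1, 54.7 and 31.5 in spleen (adjusted p = 0.0678). Of 8 macrophage and dendritic cell genes, 3 had a mean above background. Of the 8, 1 rose and 0 fell (median 0.04), with sums of 741 to 755 in pancreas and 490 to 565 in spleen. It was Lyz2, the lysozyme gene, with 264, 221 and 246 in pancreas against 77.1, 51.6 and 68.7 in spleen (adjusted p = 0.00134).

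**Figure D4:**
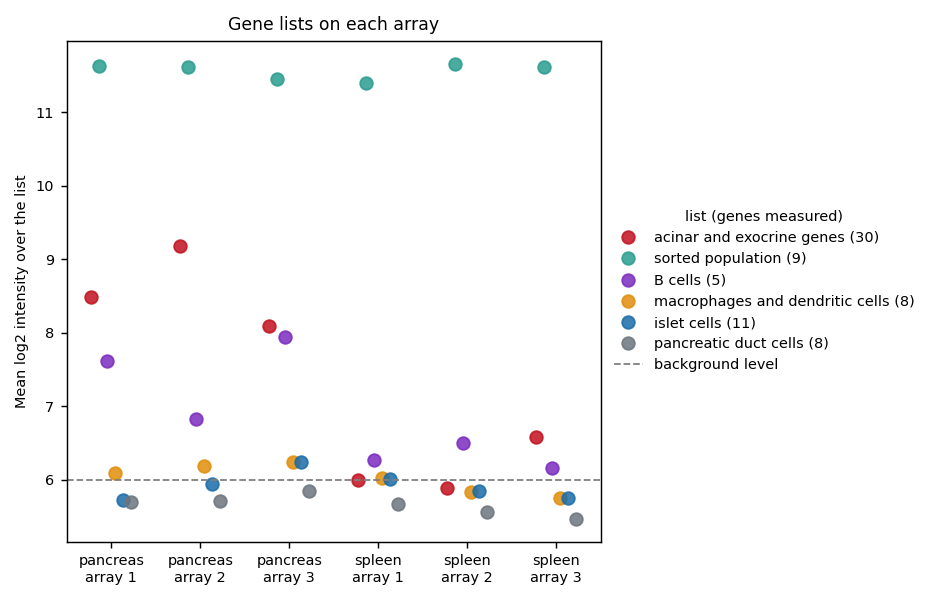
Mean log2 intensity over each gene list on each array, pancreas arrays left and spleen arrays right, shifted sideways within an array for legibility, with the number of genes measured in the legend and the background level dashed. The acinar genes are highest on pancreas array 2 (9.18) and, among spleen arrays, on array 3 (6.58), where the B cell list has 6.83 and 6.16.

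The genes whose values over the 6 arrays were most like the mean of the members were found among 103 genes, other than members, that were above background on at least 1 array and ranged over at least 2 on the log2 scale. The 6 arrays are of 2 tissues, so a gene clearly higher in pancreas tends to score high, and the values are given only as a description. The closest was Reg1 (Pearson r = 0.995), and 2210010C04Rik followed at 0.980. Most of the others are known from immune cells, while Fos is not particular to them. Lag3, a co-inhibitory receptor gene, had r = 0.988, Fgl2 0.982, the decoy receptor gene Il1r2 0.981, Tbx21 0.971, Fos 0.969, Nkg7 0.964, Il10 0.964, Lilr4b 0.962, Jchain 0.961 and Ccl5 0.960. Of the 12 genes, 11 had their highest spleen value on array 3, against 28.2% of all genes, the exception being Jchain. The members' mean was itself highest there among the spleen arrays. Picking genes by likeness to it favours this pattern, so the count is no support. Il10 and Lilr4b were below background on every spleen array. Lag3 had 493, 603 and 359.9 in pancreas against 94.3, 108 and 185 in spleen, and Ccl5 had 2280.3, 2332 and 1833 in pancreas against 352, 411 and 899.6 in spleen. Among the members themselves, the correlation of each gene with the mean of the others was at least 0.929 for 24 of the 30, and highest for Cela2a (0.999). It was 0.892 for Serpini2, 0.788 for Cuzd1, 0.765 for Tff2, and 0.594, 0.343 and 0.244 for Bhlha15, Ptf1a and Rbpjl.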

How the data were processed

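Sorted-cell RNA was prepared with an Ambion WT Expression Kit, per the labels' protocols, and read on Affymetrix Mouse Gene 1.0 ST arrays. The deposited values are linear intensity values, which the authors made with Affymetrix Power Tools (RMA), as the submitters' processing notes name them. Versions are not given in the sources used here, and scan batches are unknown. Of 24922 probe sets, 21425 name 1 gene, 1399 several and 2098 none in the platform annotation. Of those naming 1 gene, 21347 matched RefSeq by gene ID. A gene with more than 1 probe set (921 genes) was represented by its brightest, by mean log2 level, which gave 19752 genes.

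Log2 intensities were fitted with limma 3.58.1 in R 4.3.3 (lmFit and eBayes, tissue as the only term, two-sided, prior df 6.58, residual df 4), and p-values were adjusted by Benjamini-Hochberg over all 19752 genes with a threshold of 0.05. The method was tested on simulated data. The background level was the 95th percentile of the mean log2 level of 1194 olfactory and vomeronasal receptor genes (log2 6.00). For a fold given as a lower bound, each spleen array below this level was raised to it. No bound was given where a pancreas array was also below this level. Log2 fold changes with SE, medians over lists and adjusted p-values are of the fit without raised values, unless that setting is named. Figures were drawn with Python 3.11.15 and matplotlib 3.10.9. Any member could be named, grouped by class, with up to 4 genes of each other list (the brightest above background) and the 12 genes most correlated with the members' mean. The members and lists were chosen with earlier results of these data known. Alternatives were median-centring, quantile normalization, a floor at background, other probe-set rules, other variance models, array weights, a replicate block, a filter on low genes and leaving out each array. Testing every probe set was an alternative chosen after seeing the data.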

Additional observations from a re-analysis of the deposited data

Results flagged for a closer look

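The probe sets that name several genes were left out of the gene comparison and carried a clear signal in pancreas. For the 3 that name Amy2a2, Amy2b and Amy2a5, the mean intensity was 2146, 2574 and 2383 on the pancreas arrays, against 112, 141 and 132 on the spleen arrays. For the 2 that name Prss1 with Prss3, Gm10334 and Gm5771, it was 581 and 168 on the pancreas arrays, against 128 and 55.0 on the spleen arrays. Which of the named genes gave the signal was not tested.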

How the results depend on the processing

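Main values were 21 members higher, a median of 2.68 over the 30 on the log2 scale, and 134 genes past the test in all. Median-centring gave 11 members and 38 genes, and quantile normalization 203 genes. Raising values below background to that level gave 0 members, a median of 2.03 and 3 genes, and a mean acinar level of 6.30 on spleen array 2 in place of 5.89. That floor left 6588 genes with no spread and lowered the prior df to 0.353. The 13 members with all 6 values above background kept their values, and 0 of the 13 passed. Array weights gave a median of 3.66 and 7206 genes, with weights of 0.275, 9.50 and 0.236 for the pancreas arrays and 0.440, 5.69 and 0.650 for the spleen arrays; the weight estimation stopped before its tolerance was reached, so these calls are not relied on. Testing every probe set gave 76 genes. Leaving out 1 array at a time gave 12 to 24 members, medians of 2.16 to 3.08 and 64 to 262 genes. Of the 21 called members, 12 were called in all 6 such fits and 0 in all settings. Ptf1a reversed to -0.0100 with quantile normalization and -0.00533 with array weights, with a leave-one-out range of -0.0229 (spleen array 1 left out) to 0.110 (spleen array 2 left out). Over single members and settings, 347 values kept direction and side of the threshold, 48 lost the call, 17 gained it and 3 reversed. Apart from the array dependence given beside single genes, the causes were not tested. The replicate block gave 24 members, a median of 2.68 and 132 genes. Arrays of the same number correlated at -0.465, 0.115 and -0.677 in their deviations from the tissue mean. Those deviations also carry the differing widths of the arrays, so they cannot show whether arrays of the same number belong together. Signal near background limits the dim members. Their folds are lower bounds where they are given as such. Their log2 fold changes and adjusted p-values in the main fit come from values not raised to background.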
